A study of Homo sapiens with 6 samples.

Results

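The transcripts described here are 10 long noncoding RNAs that host small nucleolar RNAs (snoRNAs), taken from a table of 23013 genes as the rows with the symbols SNHG1, SNHG3, SNHG5, SNHG6, SNHG7, SNHG8, SNHG12, SNHG15, SNHG16 and GAS5. All 10 had a row and all 10 passed the filter on low values, which kept 16513 genes. RNA bound to ORC1, which belongs to the origin recognition complex that marks where DNA replication starts, was recovered by native RNA immunoprecipitation (RIP-seq) from nuclei of untreated, unsynchronised HCT116 cells (human, colorectal cancer, grown in RPMI medium). The 3 ORC1 IP libraries came from an antibody against the endogenous protein, and the 3 input libraries, which had no antibody, held the nuclear RNA of the same RIP replicates 1 to 3. All libraries are from a single cell line. The labels do not say whether the replicates were separate cultures, so p-values measure the spread between these libraries, which may be technical.

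A snoRNA host gene is transcribed by RNA polymerase II into a precursor whose exons are joined while the introns are trimmed down to snoRNAs. Box C/D snoRNAs guide 2′-O-methylation, and box H/ACA snoRNAs guide pseudouridylation or take part in cleavage of ribosomal RNA. The spliced host RNA is the by-product in several of these genes: UHG (SNHG1) and GAS5 begin with a 5′-terminal oligopyrimidine tract and, once exported, are removed by nonsense-mediated decay (NMD).

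Recovered reads per library numbered from 13703033 to 17248924 for the inputs and from 25134156 to 36008733 for the ORC1 IPs, and each host had between 264 and 22223 reads in every library. ORC1 IP replicate 2 stood apart. Its Pearson correlation across genes, which are not independent replicates, was 0.902 and 0.92 with the other ORC1 IPs, against 0.958 between those, and it was 0.941 with input 1. Input 1 was the closest input to every ORC1 IP, at 0.918, 0.941 and 0.943 with ORC1 IPs 1, 2 and 3. These correlations do not tell which input belongs to which ORC1 IP. Differences taken replicate by replicate therefore rest on the numbers in the labels. In ORC1 IP 2 the HCT116 epithelial markers EPCAM, CDH1, KRT8, KRT18 and KRT19 were all lower than in input 2, with a median log2 difference of -2.74. Their part in the results was not tested. All 5 of these markers had reads in every library. Of 5 markers of leukocytes, fibroblasts and endothelium, COL1A1 ranged from 161 to 787 normalised counts and the other 4 were not analysed here. Results are given with and without this library. Values are normalised counts, that is reads divided by a size factor of the library, so a lower capture of one RNA and a higher capture of other RNAs cannot be told apart.

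SNHG3 was the only host called different between ORC1 IP and input in limma. Its log2 fold change (ORC1 IP over input, on log2(normalised count + 1)) was -2.94 ± 0.71 (SE, n = 3 per group), a 7.66-fold lower level, with a limma adjusted p of 0.0434. Thus 1 of 10 hosts was called lower, against 1.42% of all genes tested, and 0 of 10 higher, against 2.28%. None had an unadjusted p under 0.05 in the higher direction, where 12.2% of all genes did. On recovered reads, edgeR called 0 of 10 lower (1.31% of all genes) and 0 higher (2.57%), and DESeq2 called 1 of 10 lower (4.35%) and 0 higher (7.67%). With the replicate block limma called 1 of 10 lower (1.16%) and 0 higher (2.62%). At an unadjusted p under 0.05, 2 of 10 were lower (SNHG3 and SNHG8), beside 9.45% of all genes. The median log2 fold change of the hosts was -0.32, that of all genes 0.01, and 7 of 10 hosts had a negative value, as had 49.3% of all genes.

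SNHG3 (ENSG00000242125) lies on the plus strand of chromosome 1 at chr1:28505980-28510892 in GRCh38 (GENCODE v44), and is annotated as a lncRNA with a canonical transcript of 3 exons and 2201 nt. It hosts SNORA73A and SNORA73B, the U17 (E1) snoRNAs, box H/ACA RNAs of ribosomal RNA processing. Both guest sequences are shown because the clearest difference in the set is at this locus. They are from the GENCODE v44 transcripts (GRCh38), and the capitals mark the ACA box, 3 bases from the 3′ end in both.
SNORA73A: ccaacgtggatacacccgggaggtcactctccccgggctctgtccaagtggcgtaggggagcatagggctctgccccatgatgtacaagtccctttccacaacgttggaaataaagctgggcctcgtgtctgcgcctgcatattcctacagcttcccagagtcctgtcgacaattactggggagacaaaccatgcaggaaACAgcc
SNORA73B: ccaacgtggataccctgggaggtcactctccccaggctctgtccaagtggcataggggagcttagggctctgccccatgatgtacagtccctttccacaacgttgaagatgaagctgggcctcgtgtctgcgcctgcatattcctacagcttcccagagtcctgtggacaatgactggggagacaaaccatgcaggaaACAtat
SNORA73A (chr1:28507366-28507571, plus strand) is 206 nt long and SNORA73B (chr1:28508559-28508762, plus strand) 204 nt. They were identical at 192 of 206 aligned positions (93.2%), and the longest stretch without a difference ran over 54 nt.

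The normalised count of SNHG3 was 12235 in input 1, 27594 in input 2 and 9459 in input 3. It was 2613 in ORC1 IP 1, 4488 in ORC1 IP 2 and 604 in ORC1 IP 3. Every ORC1 IP was therefore below every input, a pattern shown by SNHG3 alone among the hosts and by 13.5% of all genes, while no host had every ORC1 IP above every input, against 12.7% of all genes. Replicate by replicate, the log2 difference was -2.23, -2.62 and -3.97. Input 2 was the highest library and ORC1 IP 3 the lowest, so the spread was wide within both groups, with a mean of 16430 ± 9768 (SD, n = 3) in input and 2568 ± 1942 (SD, n = 3) in ORC1 IP. Without ORC1 IP replicate 2 the log2 fold change was -3.55 (limma adjusted p = 0.00142). The call depended on the other libraries: the limma adjusted p was 0.076, 0.162, 0.179 and 0.142 without input 1, input 2, input 3 and ORC1 IP 3, and edgeR on recovered reads gave 0.0641, with the direction kept in each case.

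**Figure D1:**
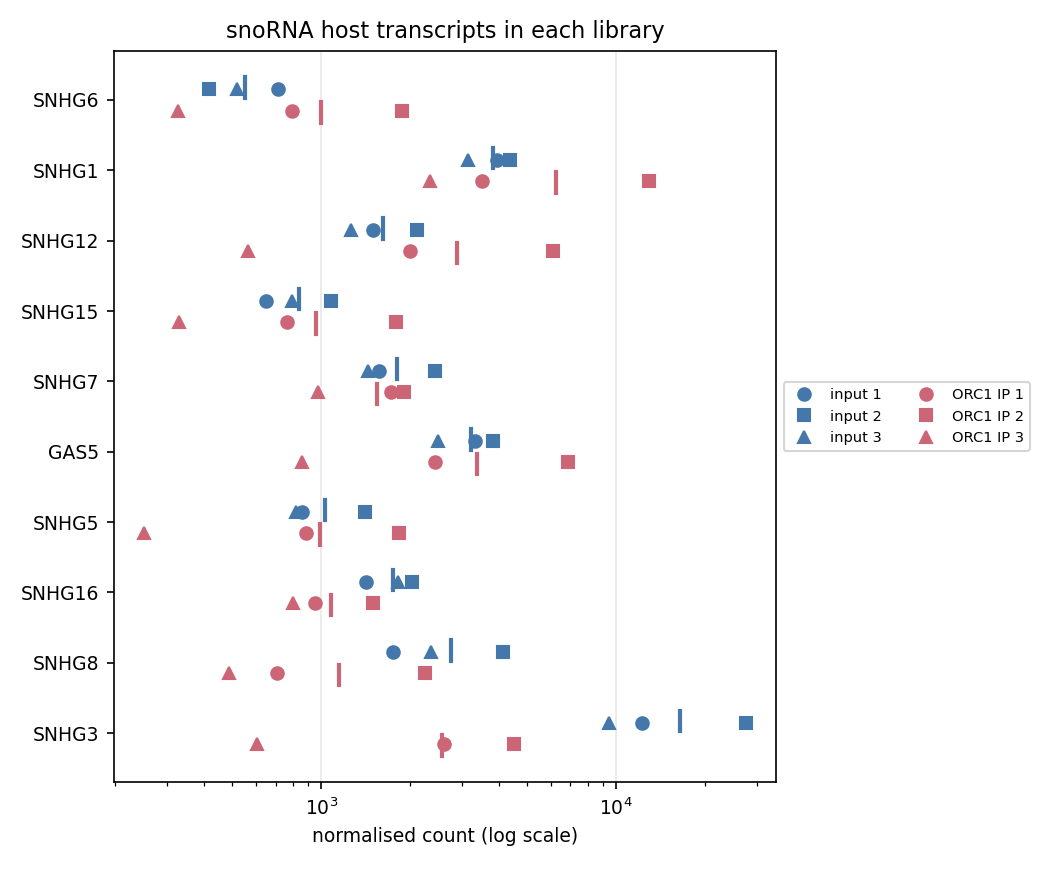
Normalised count (log axis) of each host transcript in the 3 input (blue) and 3 ORC1 IP (red) libraries, with marker shape giving the replicate and vertical bars the group means. SNHG3, at the bottom, is the only host whose ORC1 IP values (604 to 4488) all sit below its inputs (9459 to 27594), and in every row ORC1 IP 2 (square) is the highest and ORC1 IP 3 (triangle) the lowest of the red points.

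The guest snoRNA of the same locus was lower as well. SNORA73B gave normalised counts of 6555, 7141 and 2808 for input, whereas ORC1 IP gave 736, 1507 and 276. Every ORC1 IP was below every input, as in 13.5% of all genes, and the log2 fold change was -2.91 ± 0.58 (SE, n = 3 per group, limma adjusted p = 0.0232). Without ORC1 IP replicate 2 it was -3.49 (limma adjusted p = 0.00076), while leaving out input 1, input 2, input 3 or ORC1 IP 3 raised the limma adjusted p to between 0.0565 and 0.082. The log2 ratio of SNORA73B to SNHG3 was -0.90, -1.95 and -1.75 for input, with -1.83, -1.57 and -1.13 for ORC1 IP. These ranges overlapped, and the means differed by 0.02 (exact permutation test, two-sided, p = 1.0, n = 3 per group; the smallest p this design allows is 0.1).

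The level of SNORA73A was not analysed here. In GENCODE v44 it lies within an exon of a SNHG3 isoform, so reads from it and from that isoform cannot be told apart by position. SNHG3 also shares 242 nt, 11% of its canonical transcript, with RCC1 on the same strand, which encodes the nucleotide exchange factor of the RAN GTPase. The groups of RCC1 overlapped: its normalised count was 4259, 6826 and 5536 for input, with 4760, 1975 and 4937 for ORC1 IP, and its log2 fold change was -0.60 ± 0.50 (SE, n = 3 per group, limma adjusted p = 0.525).

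Among the hosts of box H/ACA snoRNAs, SNHG8 came next. SNHG8 (ENSG00000269893; chr4:118278703-118285316, plus strand), host of SNORA24, measured 1748, 4146 and 2357 for input, with 708, 2242 and 487 for ORC1 IP. It was lower in the ORC1 IP of each replicate, by log2 differences of -1.30, -0.89 and -2.27, but ORC1 IP 2 lay above input 1 and the groups overlapped. The log2 fold change of -1.49 ± 0.54 (SE, n = 3 per group) had a limma adjusted p of 0.135, which became 0.00262, with a log2 fold change of -2.13, without ORC1 IP replicate 2. In that fit 6.38% of all genes were lower. Leaving out any other library gave SNHG8 a limma adjusted p between 0.138 and 0.413. The annotated canonical transcript shares 40.3% of its length with PRSS12 on the opposite strand, a serine protease gene with a log2 fold change of 0.20 (limma adjusted p = 0.833). Whether the counting used strand is not stated, so reads of SNHG8 and PRSS12 in this stretch cannot be told apart, and the same holds for SNHG6 and SNHG7.

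SNHG7 (ENSG00000233016; chr9:136721366-136728184, minus strand) hosts the SNORA17 RNAs. Its normalised count was 1564, 2425 and 1445 in input and 1729, 1914 and 978 in ORC1 IP. The groups overlapped, the replicates pointed in different directions, and the log2 fold change was -0.25 ± 0.40 (SE, n = 3 per group, limma adjusted p = 0.767). FAM69B, on the opposite strand over 46.4% of the canonical SNHG7 transcript, had a log2 fold change of 0.54 (limma adjusted p = 0.433). SNHG15 (ENSG00000232956; chr7:44983019-44986961, minus strand), host of SNORA9, measured 651, 1076 and 797 in input and 765, 1788 and 329 in ORC1 IP. Both the highest and the lowest library were ORC1 IPs, and the log2 fold change was -0.10 ± 0.52 (SE, n = 3 per group, limma adjusted p = 0.934), positive in edgeR (0.23) and DESeq2 (0.19).

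SNHG12 (ENSG00000197989; chr1:28578538-28583132, minus strand) hosts guests of both classes, the H/ACA RNAs SNORA16A, SNORA44 and SNORA61 and the box C/D RNA SNORD99. It measured 1493, 2112 and 1257 in input and 2002, 6121 and 563 in ORC1 IP. The ORC1 IPs fell on either side of the inputs, with a log2 fold change of 0.27 ± 0.67 (SE, n = 3 per group, limma adjusted p = 0.86).

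None of the hosts of box C/D snoRNAs alone passed the test in limma, and in 4 of these 5 the ORC1 IPs lay on both sides of the inputs. GAS5 (ENSG00000234741; chr1:173858559-173868882, minus strand), the growth arrest-specific transcript with 12 exons, measured 3323, 3823 and 2495 in input and 2426, 6876 and 860 in ORC1 IP. One ORC1 IP was above all inputs and the others below them, and the log2 fold change was -0.38 ± 0.62 (SE, n = 3 per group, limma adjusted p = 0.775), again positive in edgeR (0.12) and DESeq2 (0.08). SNHG1 (ENSG00000255717; chr11:62851978-62855953, minus strand), with 11 exons and the guests SNORD22 and SNORD25 to SNORD31, measured 3935, 4364 and 3143 in input and 3514, 12902 and 2342 in ORC1 IP. ORC1 IP 2 was the outlying value, and the log2 fold change of 0.33 ± 0.59 (SE, n = 3 per group, limma adjusted p = 0.798) became -0.40 without it.

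SNHG5 (ENSG00000203875; chr6:85650491-85678932, minus strand), host of the SNORD50 RNAs, measured 863, 1412 and 823 in input and 887, 1829 and 250 in ORC1 IP. ORC1 IP 3 was far below the inputs and ORC1 IP 2 above them, and the log2 fold change was -0.43 ± 0.59 (SE, n = 3 per group, limma adjusted p = 0.721). A further gene annotated on the same strand (ENSG00000271793) covers 60.7% of its canonical transcript and was not analysed here. SNHG6 (ENSG00000245910; chr8:66920561-66926398, minus strand), host of SNORD87, measured 716, 416 and 516 in input and 793, 1883 and 326 in ORC1 IP. It had the highest log2 fold change of the set, 0.55 ± 0.54 (SE, n = 3 per group, limma adjusted p = 0.594), which was -0.08 without ORC1 IP replicate 2. Its canonical transcript shares 81.7% of its length with MCMDC2 on the opposite strand, whose mean was 28.3 normalised counts in input and 16.1 in ORC1 IP.

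SNHG16 (ENSG00000163597; chr17:76557727-76670985, plus strand), host of the SNORD1 RNAs, measured 1423, 2035 and 1815 in input and 949, 1493 and 801 in ORC1 IP. Each ORC1 IP was below the input of its own replicate, although ORC1 IP 2 exceeded input 1. The log2 fold change was -0.74 ± 0.37 (SE, n = 3 per group, limma adjusted p = 0.278), and -1.0 (limma adjusted p = 0.0489) without ORC1 IP replicate 2. Leaving out any other library gave a limma adjusted p between 0.261 and 0.614.

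**Figure D2:**
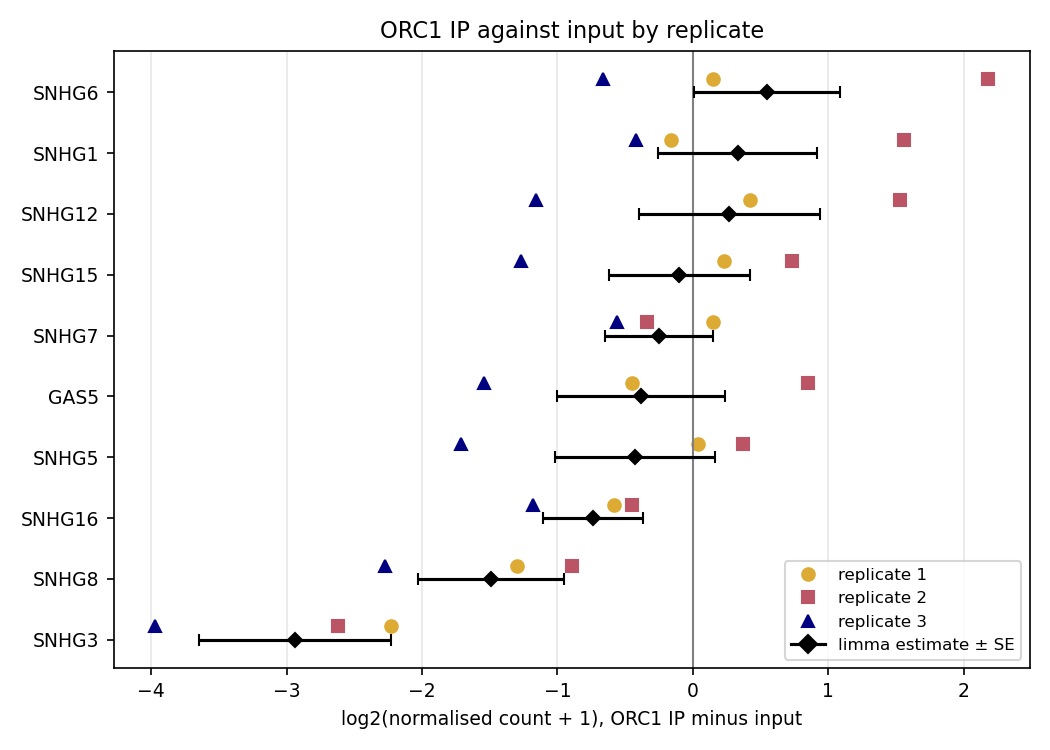
Log2 difference between ORC1 IP and input for each host: coloured points are the 3 replicates and black diamonds the limma estimate with its standard error (n = 3 per group). In replicate 3 all 10 hosts lie below 0, in replicate 2 the values run from -2.62 (SNHG3) to 2.18 (SNHG6), and only SNHG3, SNHG8 and SNHG16 are below 0 in each replicate.

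Among the ORC1 IPs, all hosts followed a single order of libraries. The median log2 difference of the 10 hosts was -0.06 in replicate 1, 0.55 in replicate 2 and -1.23 in replicate 3. The number of hosts higher in ORC1 IP was accordingly 5, 6 and 0 of 10, beside 8231, 8304 and 8597 of the 16513 genes tested. In all 10 hosts ORC1 IP 2 was above ORC1 IP 1 and ORC1 IP 1 above ORC1 IP 3, an order found in 16.6% of all genes and in 36.3% of the 1410 tested genes that GENCODE v44 annotates as lncRNAs. ORC1 IP 3 was the lowest of the 6 libraries for 10 of 10 hosts, against 14.2% of all genes, and ORC1 IP 2 the highest for 6 of 10, against 22.9%. The log2 difference between ORC1 IPs 2 and 3 ranged from 0.90 to 3.44 with a median of 2.49, while its median over all genes was -0.06. These counts describe 6 shared libraries, and the cause of the spread was not tested.

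Among the inputs, input 2 was the highest input for 9 of 10 hosts, SNHG6 being the exception, and for 33.0% of all genes. Over the 6 libraries the Pearson correlation of log2 values between pairs of hosts had a median of 0.77 (range 0.09 to 0.99, 45 pairs that share all libraries). GAS5 and SNHG5 followed the mean of the other hosts most closely, each with r = 0.98, and SNHG6 and SNHG3 least, with r = 0.58 and 0.66.

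ORC1 IP 2 was the highest ORC1 IP in all 10 hosts and ORC1 IP 3 the lowest. Leaving out either therefore moves every host in a known direction. Without ORC1 IP replicate 2, all 10 hosts had a negative log2 fold change, with a median of -0.85 beside 0.02 for all genes. In limma 3 of 10 were then lower (SNHG3, SNHG8 and SNHG16), against 6.38% of all genes, and 0 of 10 were higher, against 11.9%. Without ORC1 IP 3 instead, the median of the hosts was 0.36, beside -0.01 for all genes. In limma 0 of 10 hosts were then lower and 0 higher, beside 23 and 24 of the 16513 genes tested.

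As a share of all counts, the 10 hosts made up 0.154%, 0.229% and 0.125% of inputs 1, 2 and 3, and 0.0543%, 0.285% and 0.0281% of the ORC1 IPs. The share in ORC1 IP 2 was above every input and in the others below every input, with means of 0.169% ± 0.0537 (SD, n = 3) and 0.122% ± 0.141 (SD, n = 3). The composition of the set shifted with SNHG3. It supplied 43.8%, 55.9% and 39.2% of the counts of the 10 hosts in the inputs, and 15.9%, 10.8% and 8.01% in the ORC1 IPs, so these groups did not overlap, ORC1 IP 2 included. The remaining 9 hosts had 0.0878% ± 0.0125 (SD, n = 3) of input counts and 0.108% ± 0.126 (SD, n = 3) of ORC1 IP counts.

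Divided by the length of the canonical transcript, the input level was highest for SNHG3 at 7465 ± 4438 normalised counts per kb (SD, n = 3), followed by GAS5 at 4184 ± 874, SNHG16 at 3529 ± 622 and SNHG1 at 3282 ± 533. Neighbours among these overlapped in range. A gap followed, since SNHG12 at 866 ± 236 normalised counts per kb did not reach the range of SNHG1, whereas the other 8 of 9 neighbouring pairs overlapped. Down the order came SNHG5 (785 ± 250 normalised counts per kb), SNHG7 (769 ± 227), SNHG8 (446 ± 202), SNHG6 (302 ± 84.0) and SNHG15 (281 ± 72.1). In ORC1 IP the order began with SNHG1 at 5381 ± 4981 normalised counts per kb (SD, n = 3) and GAS5 at 4411 ± 4064, SNHG3 was lower in the order at 1167 ± 882, and all 9 neighbouring pairs overlapped. The order depends on the annotated length: with all annotated exons of a gene merged, SNHG16 moved from rank 3 to 7 and SNHG8 from rank 8 to 4 in input.

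Of the guest snoRNAs, 4 had values. GENCODE v44 gives 25 snoRNA entries inside 9 of the hosts. For the 22 entries that overlap an annotated exon of their host no value was analysed here. These 22 lie in 9 hosts, all except GAS5, and SNORA9 overlaps the canonical transcript of SNHG15 over 133 nt. Reads from them and from an isoform with that exon cannot be told apart by position. Levels of these 9 hosts may therefore include reads of their snoRNAs. The 3 entries that overlap no exon (SNORA73B, SNORD99 and SNORD1B) each had values, as did SNORD78 of GAS5, matched by its symbol. The other listed guests were not analysed here. The box C/D guests with a sequence in the reference are shown for comparison with the H/ACA pair above, from GENCODE v44 (GRCh38), with capitals on the D box of SNORD99 and on the C and D boxes of SNORD1B.
SNORD99: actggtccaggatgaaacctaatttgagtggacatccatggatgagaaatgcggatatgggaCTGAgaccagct
SNORD1B: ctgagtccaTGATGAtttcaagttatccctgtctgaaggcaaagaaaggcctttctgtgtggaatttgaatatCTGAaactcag
SNORD99 lies at chr1:28578749-28578822 (minus strand) and SNORD1B at chr17:76561109-76561192 (plus strand). The letters TGATGA, searched on the transcribed strand, were present in SNORD1B and in 35.6% of 942 snoRNAs of GENCODE v44.

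SNORD78 measured 49.6, 85.1 and 65.5 normalised counts in input and 34.5, 30.8 and 2.98 in ORC1 IP, the last from 4 reads. Every ORC1 IP was below every input, as in 13.5% of all genes, and the log2 fold change was -2.0 ± 0.75 (SE, n = 3 per group, limma adjusted p = 0.145). Without ORC1 IP replicate 2 it was -2.48 (limma adjusted p = 0.0323). Leaving out any other library gave SNORD78 a limma adjusted p between 0.0895 and 0.432. Its log2 ratio to GAS5 was -6.04, -5.47 and -5.23 in input and -6.09, -7.76 and -7.76 in ORC1 IP. The difference of -1.62 had p = 0.1 in the exact two-sided permutation test, the smallest it can give, and 0.2 after Benjamini-Hochberg adjustment over 4 guest and host pairs.

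SNORD99 measured 23.2, 55.2 and 39.8 in input and 19.6, 31.4 and 5.22 in ORC1 IP. Its groups overlapped (log2 fold change -1.25 ± 0.66 (SE, n = 3 per group), limma adjusted p = 0.302), but its log2 ratio to SNHG12 did not. That ratio was -5.95, -5.23 and -4.95 in input and -6.61, -7.56 and -6.50 in ORC1 IP, a difference of -1.52 (exact two-sided permutation p = 0.1, adjusted over the 4 pairs 0.2). SNORD1B was below the filter, with 2.11 to 14.2 normalised counts in input and 0 to 9.21 in ORC1 IP, from at most 14 reads in any library. Its log2 ratio to SNHG16 differed by -0.16 (exact two-sided permutation p = 0.8).

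**Figure D3:**
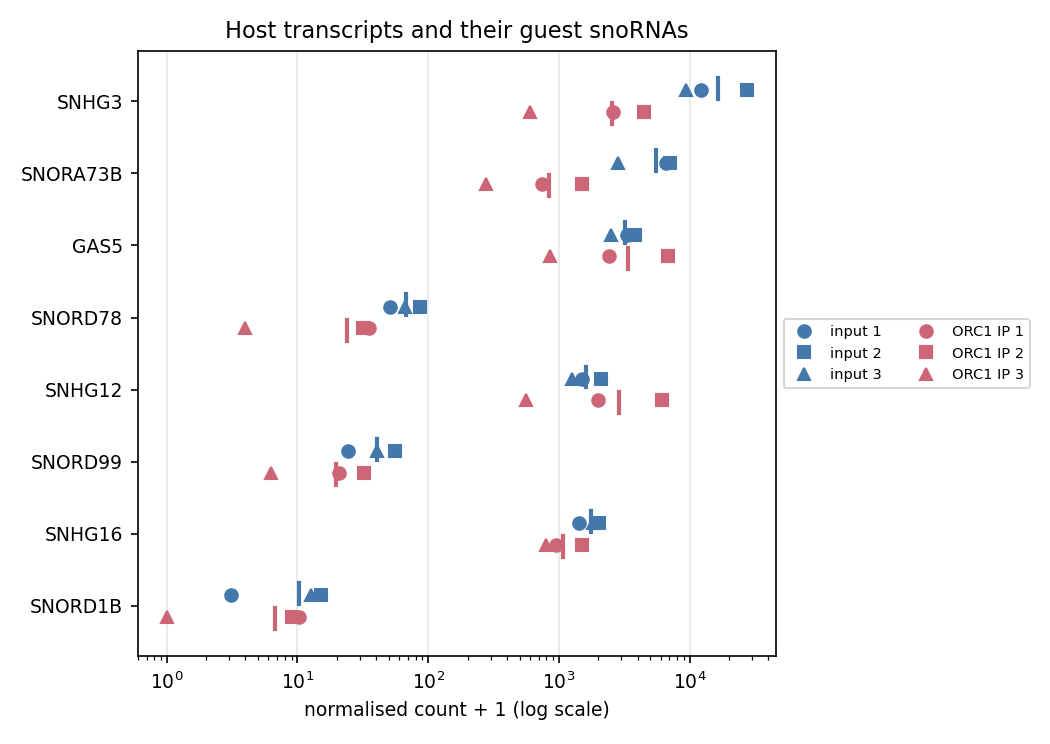
Normalised count plus 1 (log axis) of 4 hosts and the guest snoRNA of each that had values, in input (blue) and ORC1 IP (red) libraries, with bars at the group means. SNHG3 and SNORA73B are both lower in every ORC1 IP, whereas the GAS5 and SNHG12 ORC1 IPs span their inputs while those of SNORD78 (2.98 to 34.5) lie below its inputs (49.6 to 85.1).

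Transcripts with a 5′-terminal oligopyrimidine tract begin in a run of C and T. Windows of 40 bases, upstream bases included, centred on the annotated start were taken from the RefSeq promoter table (GRCh38.p14). They cover the 8 hosts used, all except SNHG6 and SNHG15, whose windows were not analysed here. These 4 are shown for the longest runs (SNHG12 and SNHG7), for the host that was lower in ORC1 IP (SNHG3) and for the one without a run of 6 (GAS5). The longest run of C and T anywhere in the window, on the strand of the gene, is in capitals.
SNHG12: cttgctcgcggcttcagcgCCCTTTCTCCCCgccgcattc
SNHG7: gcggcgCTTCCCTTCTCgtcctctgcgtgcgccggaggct
SNHG3: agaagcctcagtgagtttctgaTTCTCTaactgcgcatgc
GAS5: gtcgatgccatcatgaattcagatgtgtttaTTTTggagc
The windows are chr1:28581854-28581893 (minus strand) for SNHG12, chr9:136728165-136728204 (minus strand) for SNHG7, chr1:28505923-28505962 (plus strand) for SNHG3 and chr1:173869026-173869065 (minus strand) for GAS5. The run was 12 nt in SNHG12, 11 nt in SNHG7 and 6 nt in SNHG3, and 7 of 8 windows held a run of at least 6 nt, as did 38.8% of 35116 RefSeq start windows. The longest run was also 6 nt in SNHG5 and SNHG8. In SNHG7 the longest run lay wholly upstream of the annotated start. SNHG1 had a run of 7 nt upstream of its start and another of equal length downstream of it. The count is therefore of runs near the start and not of tracts that begin the RNA. Annotated starts also differ between sources: of the 4 hosts shown, SNHG7 alone had the same start in RefSeq and as the GENCODE v44 gene. The SNHG3 and GAS5 windows, with their runs, lay wholly upstream of the GENCODE starts. The GAS5 window therefore cannot tell whether its RNA begins in such a tract. The tandem repeat GAAGAAGAA, searched on the transcribed strand, was in 0 of 10 canonical host transcripts and in 13.0% of 16062 canonical transcripts of tested genes, whose median length was 2751.5 nt against 1846 nt for the hosts.

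The other noncoding snoRNA hosts showed the same order of libraries. Of 15 listed, 13 had a row and 11 were tested. In limma 0 were higher and 0 lower (2.28% and 1.42% of all genes). At an unadjusted p under 0.05, 0 were higher and 1 lower (12.2% and 9.45% of all genes). edgeR called 0 of either (2.57% higher and 1.31% lower of all genes), as did DESeq2 (7.67% and 4.35%). Their median log2 fold change was -0.60, and 10 of 11 values were negative (49.3% of all genes). In 10 of 11 the ORC1 IPs had the order 2, 1, 3 (16.6% of all genes). SNHG10, the lowest, measured 159, 328 and 158 in input and 41.5, 194 and 25.3 in ORC1 IP (log2 fold change -1.75 ± 0.65 (SE, n = 3 per group), limma adjusted p = 0.139), and -2.6 (limma adjusted p = 0.00206) without ORC1 IP replicate 2. Leaving out any other library gave SNHG10 a limma adjusted p between 0.191 and 0.403. SNHG11, the highest, had a log2 fold change of 0.11, which was -0.10 when libraries were scaled by total count. Without ORC1 IP replicate 2, 7 of 11 were lower in limma, against 6.38% of all genes. Without ORC1 IP 3 instead, 0 of 11 were lower, beside 23 of the 16513 genes tested, and their median log2 fold change was -0.01.

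Protein-coding snoRNA hosts, such as ribosomal protein genes, were less uniform. None of 37 passed the test in limma (0 higher, 0 lower, against 2.28% and 1.42% of all genes). At an unadjusted p under 0.05, 1 was higher and 8 lower, against 12.2% and 9.45% of all genes. edgeR called 0 higher and 0 lower (2.57% and 1.31% of all genes). DESeq2 called 3 higher and 4 lower (7.67% and 4.35% of all genes). Their median log2 fold change was -0.38, and the order of ORC1 IPs seen in all 10 noncoding hosts was present in 27.0%. RPSA, which encodes a ribosomal protein and hosts SNORA62, had the lowest log2 fold change, -1.53 ± 0.45 (SE, n = 3 per group, limma adjusted p = 0.0748). NCL, the gene of nucleolin, had the highest, 1.71 ± 1.18 (SE, n = 3 per group, limma adjusted p = 0.429). Without ORC1 IP replicate 2 these were -1.9 and 2.93 (limma adjusted p = 0.00409 and 0.00463). Leaving out any other library gave a limma adjusted p from 0.0855 to 0.346 for RPSA and from 0.527 to 0.802 for NCL. NCL ranged from 12576 to 25390 normalised counts in input and from 11251 to 289549 in ORC1 IP, where ORC1 IP 2 was the lowest.

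mRNAs of snoRNP proteins, which bind the guest RNAs, included 1 of 14 lower and 0 higher in limma, against 1.42% and 2.28% of all genes. At an unadjusted p under 0.05, 2 of 14 were higher and 3 lower, against 12.2% and 9.45% of all genes. edgeR called 0 higher and 1 lower (2.57% and 1.31% of all genes), and DESeq2 called 3 higher and 1 lower (7.67% and 4.35%). NOP56 and DKC1 are also among the host mRNAs above, and NOP56 is a higher call of DESeq2 in both lists. NHP2L1 (SNU13), whose product binds the kink-turn of box C/D RNAs, fell from 4379 ± 1060 (SD, n = 3) normalised counts in input to 1363 ± 66.7 (SD, n = 3) in ORC1 IP. This was -1.65 ± 0.38 (SE) on the log2 scale, with a limma adjusted p of 0.0381. With the replicate block its limma adjusted p was 0.0682, and without input 2, input 3, ORC1 IP 1 or ORC1 IP 3 it was 0.183, 0.264, 0.0909 and 0.103. NOP58, the box C/D core protein, had the highest log2 fold change of the list, 1.68 ± 0.59 (SE, n = 3 per group, limma adjusted p = 0.121), and 2.26 (limma adjusted p = 0.00409) without ORC1 IP replicate 2. Leaving out any other library gave NOP58 a limma adjusted p between 0.162 and 0.49.

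NMD factors degrade several of the spliced hosts in the cytoplasm. Of their mRNAs, 1 of 10 was higher and 0 lower in limma, against 2.28% and 1.42% of all genes. At an unadjusted p under 0.05, 6 of 10 were higher and 0 lower, against 12.2% and 9.45% of all genes. edgeR called 1 higher (2.57% of all genes) and DESeq2 called 4 higher (7.67%), and both called 0 lower. The count of higher calls in limma was 3 with the replicate block, against 2.62% of all genes. The median log2 fold change was 1.09, and 8 of 10 values were positive, as were 8375 of 16513 genes. All 10 were higher in the ORC1 IP of replicates 1 and 3, as were 8231 and 8597 of 16513 genes. UPF2, an adaptor of the UPF1 helicase, measured 1429, 797 and 491 in input and 8467, 2870 and 5301 in ORC1 IP. It rose with every ORC1 IP above every input, as in 12.7% of all genes (log2 fold change 2.61 ± 0.50 (SE, n = 3 per group), limma adjusted p = 0.0194). Without input 2, input 3 or ORC1 IP 3 its limma adjusted p was 0.0787, 0.195 and 0.0715. SMG8, a regulator of the SMG1 kinase, had the lowest value, -0.45 (limma adjusted p = 0.65).

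**Figure D4:**
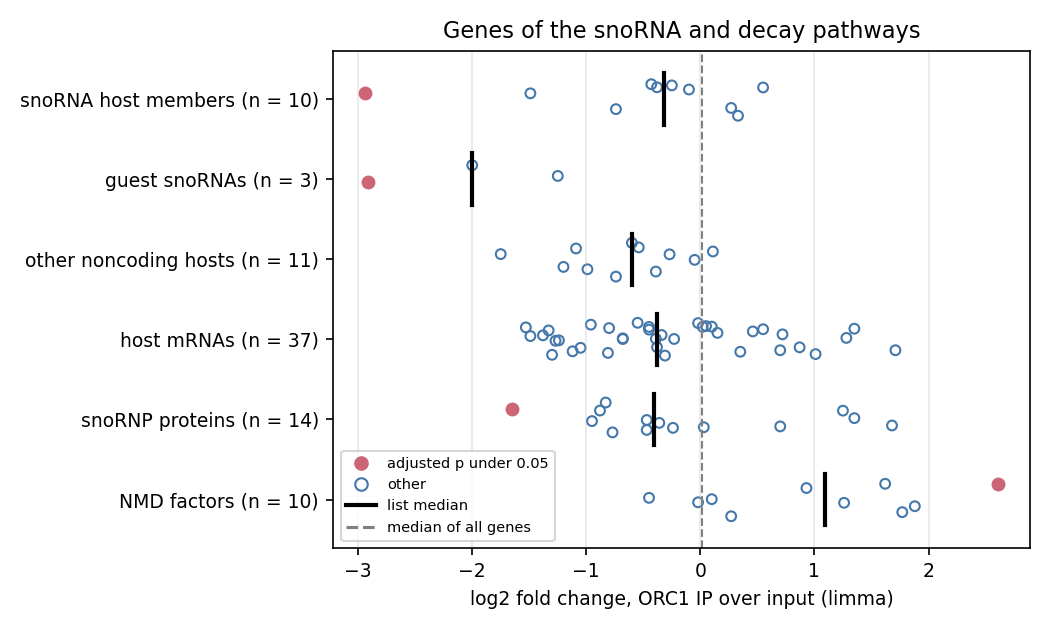
Limma log2 fold change (ORC1 IP over input) of each tested gene of the host set and of the lists of related genes, with filled points for an adjusted p under 0.05, black bars for list medians and a dashed line at the median of all genes (0.01). The 10 hosts centre on -0.32 with SNHG3 at -2.94, the guest snoRNAs lie between -2.91 and -1.25, and the NMD factors centre on 1.09.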

How the data were processed

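Native RIP-seq libraries of nuclear RNA (3 ORC1 IP, 3 input) were prepared with a stranded total RNA kit. The submitters' processing notes name Trimmomatic for the reads, STAR for the alignment and featureCounts for the genes of hg19. Whether the counting used strand is not stated in them. The deposited values are a signal: gene counts that the authors divided by DESeq2 size factors. All values (100%) were whole multiples, within 0.001 of a read, of the value of 1 read in their library, so reads were recovered. The table also holds the authors' own fold changes and p-values, which were not used. The hosts, lists and tests were chosen with earlier results of these data known.

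Genes with a mean of at least 10 were tested with limma 3.58.1 (R 4.3.3, intensity trend) on log2(normalised count + 1), with Benjamini-Hochberg adjustment over 16513 genes and a threshold of 0.05. Count tests on recovered reads (edgeR 4.0.16, DESeq2 1.42.0), other pseudocounts, filters, scalings, no trend, a replicate block and leaving out each library were alternatives. Labels tie the input and ORC1 IP of a number to one RIP replicate. Deviations from the group mean correlated at -0.322, -0.24 and 0.215 between the input and ORC1 IP of numbers 1, 2 and 3. The libraries of numbers 1 and 2 thus did not deviate together. Libraries of unlike number were not compared in this way, so the pairing that the labels give was not tested. All 10 hosts were named, and of each list the genes with an adjusted p under 0.05 (at most 5) and the highest and lowest log2 fold change. Guest to host ratios used an exact permutation test. Positions and sequences came from GENCODE v44 and RefSeq (GRCh38), matched by Ensembl gene ID or symbol, never by hg19 position, and Biopython 1.88. Scripts were tested on simulated data without an outlying library, which checks the code and not how the tests behave on these libraries. Counting error is small for the hosts, and depth limits the box C/D guests.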

Additional observations from a re-analysis of the deposited data

How the results depend on the processing

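With 3 libraries per group, single libraries moved most counts. Leaving out each library in turn gave 6 to 1965 genes higher and 23 to 1053 lower in limma (376 and 234 with all). For the hosts this gave 0 higher and 0 to 3 lower, with a median log2 fold change from -0.85 to 0.36. Of the related lists, the other noncoding hosts had 0 to 7 lower, host mRNAs 0 to 5 higher and 0 to 9 lower, snoRNP proteins 0 to 3 higher and 0 to 1 lower, NMD factors 0 to 6 higher and guest snoRNAs 0 to 2 lower. The lowest numbers for all genes came without input 3 (6 higher, 23 lower, 20.7% of calls higher against 61.6%) and the highest without ORC1 IP 2.

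Log2 fold changes that crossed 0 in this way ranged from -0.40 to 0.83 for SNHG1, -1.08 to 0.35 for SNHG5, -0.08 to 1.19 for SNHG6, -0.44 to 0.05 for SNHG7, -0.57 to 1.15 for SNHG12, -0.71 to 0.51 for SNHG15, -1.13 to 0.37 for GAS5, -0.54 to 0.45 for SNHG11 and -0.80 to 0.04 for SMG8. The log2 ratio difference ranged from -0.18 to 0.34 for SNORA73B to SNHG3 and from -0.81 to 0.74 for SNORD1B to SNHG16. SNHG3 stayed between -3.55 and -2.10.

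Scaling by total count gave 87 genes higher and 96 lower, moved the median of all genes to -0.19 and the share of higher calls to 47.5%, left 0 hosts lower (SNHG3 adjusted p = 0.058 in limma) and put SNHG11 at -0.10. Without the trend limma called 143 higher and 96 lower, with 0 hosts, 0 snoRNP proteins and 0 guests lower and 0 NMD factors higher. edgeR called 0 hosts lower and gave 0.23 for SNHG15 and 0.12 for GAS5. DESeq2 called 1266 higher and 718 lower, with 3 host mRNAs, 3 snoRNP proteins and 4 NMD factors higher and 4 host mRNAs lower, and gave 0.19 for SNHG15 and 0.08 for GAS5. NOP56 was counted both as a host mRNA and as a snoRNP protein there. With the replicate block limma and edgeR each called 0 snoRNP proteins lower and 3 NMD factors higher; NHP2L1 was then past the threshold in neither. In limma the block changed no other call of a named gene. In edgeR it also changed SNHG3, from an adjusted p of 0.0641 to 0.0498, which made 1 host lower. A pseudocount of 5 turned the SNORD1B to SNHG16 difference to 0.30. The causes of these changes were not tested. Other pseudocounts, filters, TMM and upper quartile scaling kept SNHG3's limma adjusted p between 0.0344 and 0.048. Reads were few for SNORD78, SNORD99 and SNORD1B, where a difference may not be detectable at this depth.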
